A study of Rattus norvegicus with 4 samples.

Results

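Sparc, Postn, Fn1, Dcn and Lum encode matrix proteins, other than collagens, that are laid down in repair tissue. They were taken by their Ensembl gene IDs, ENSRNOG00000012840 for Sparc, ENSRNOG00000012660 for Postn, ENSRNOG00000014288 for Fn1, ENSRNOG00000004554 for Dcn and ENSRNOG00000004610 for Lum, and make up 5 of the 20174 genes probed. Symbols were given with these IDs when the genes were selected; neither the array files nor the reference table pairs them. No ID was absent, no deposited value was null, and each gene had 1 spot with good flags on each of the 4 arrays. The tissue was fracture callus of male Sprague-Dawley rats aged 12 weeks, collected after a closed transverse fracture of the right femur held by an intramedullary wire. The groups were diabetic callus of day 11, control callus of day 11, diabetic callus of day 5 and control callus of day 5. Diabetic rats had received 1 intravenous injection of 40 mg/kg streptozotocin, which kills the pancreatic cells that make insulin, and had blood glucose over 300 mg/dl, whereas control rats had received sodium chloride and had normal glucose. Callus of 5 animals was pooled for each array, so the spread between animals cannot be estimated and no difference between 2 arrays has a replicate check. Streptozotocin models a loss of insulin rather than insulin resistance, and whole callus mixes cartilage, bone, marrow, vessels and fibrous tissue. Markers of these cell types were not checked, since their IDs were not paired with symbols.

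These proteins act at different levels of matrix assembly. Fibronectin (Fn1) is an adhesive glycoprotein that cells pull into fibrils through integrins, and it forms the provisional matrix on which collagen is deposited in wounds. Sparc (osteonectin) binds collagen and calcium and is abundant in bone matrix, while periostin (Postn) is made by periosteal cells and fibroblasts and takes part in collagen crosslinking. Decorin (Dcn) and lumican (Lum) are small leucine-rich proteoglycans that bind collagen fibrils and limit their thickness.

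Signal is given as normalized intensity, the spot median corrected for the blank-spot level and quantile normalized over 20161 genes, plus an offset of 50 that is under 1.5% of every value given for these 5 genes. Genes of equal brightness rank on different arrays receive an equal value by this method, which is why 10047 and 9035 recur below. The limit for counting a gene was 2-fold between the arrays, or 1 on the log2 scale in either direction. Each array had 15846 to 16377 genes above the blank-spot limit, and all 5 genes exceeded both this limit and the higher limit of the negative controls on all 4 arrays. Their spot medians ran up to 20497, below the highest spot of any array (48775 to 65349). Positive control 1, a probe of similar brightness repeated at 24 positions, gave 1 yardstick of spot error: between 2 arrays its log2 differences had an SD of 0.0855 to 0.109. Positive control 2, also at 24 positions, had an SD of 0.298 to 1.23, or 0.0987 to 0.141 by the median absolute deviation, which gives outlying spots little weight. Neither covers animals, extraction or amplification, nor a shift shared by all spots of an array. Positive control 2 had 1 spot at under 0.5 of its median on 3 arrays and 2 such spots on the diabetic array of day 11, all in block 1, the block that also holds the Dcn spot. The spots of Sparc, Postn, Fn1 and Lum lay in blocks 6, 17, 22 and 13.

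**Figure D1:**
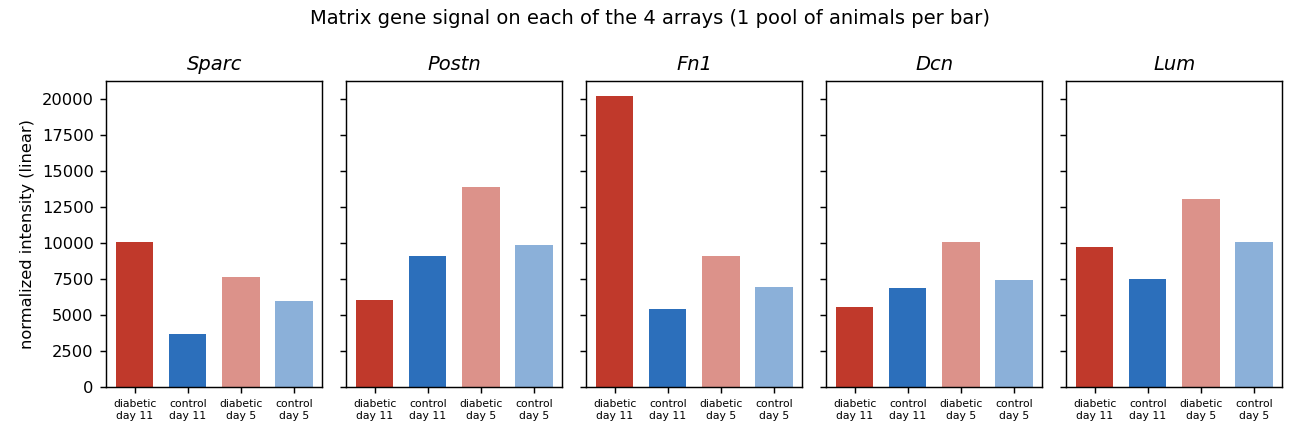
Normalized intensity (linear axis from 0) of each gene on the 4 arrays, 1 bar per pool of 5 animals, with diabetic callus in red and control callus in blue and paler bars for day 5. Fn1 stands at 20209 in diabetic callus of day 11, against 5390.4 in control callus of that day, while Postn is lowest in diabetic callus of day 11.

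Fn1 had the widest range of the 5 genes, with 20209 in diabetic callus against 5390.4 in control callus on day 11, and 9035 in diabetic callus against 6919 in control callus on day 5. In these values diabetic callus of day 11 stood apart, and the other 3 arrays lay within 5390.4 to 9035. On day 11 Fn1 was 3.75-fold higher in diabetic callus, a log2 difference of 1.91, and 1.12% of all genes tested were at least as far apart in that comparison. On day 5 it was 1.31-fold higher in diabetic callus, a log2 difference of 0.38 (1.03, past 2-fold, with the local background in normexp). Within diabetic callus it was 2.24-fold higher on day 11 than on day 5. Within control callus it was instead lower on day 11, by a log2 difference of -0.36 (0.59 with the local background in normexp). In bulk tissue, more transcript per cell and more cells that make it cannot be told apart, here and for the genes below. The day 11 difference between diabetic and control callus stayed past 2-fold in all 9 other settings of the values (log2 1.13 to 2.07). The difference between the days in diabetic callus did not: it was 0.99 in the authors' deposited table, 0.68 when normexp used the local background and 0.69 when that background was subtracted.

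Sparc was also highest in diabetic callus of day 11, with 10047 there against 3652 in control callus, and with 7599.8 in diabetic callus against 5953 in control callus on day 5. In these values both diabetic arrays were above both control arrays. Sparc was 2.75-fold higher in diabetic callus on day 11, a log2 difference of 1.46, and 2.15% of tested genes were at least as far apart. Among the 5040 brightest genes the middle 95% ran from -1.43 to 1.48 in that comparison, so Sparc lay just inside that band. On day 5 the log2 difference was 0.35, or 1.28-fold, but it turned to -0.29 with the local background in normexp. From day to day the conditions moved in opposite directions: day 11 was higher than day 5 by a log2 difference of 0.40 in diabetic callus and lower by -0.71 in control callus. The diabetic-over-control difference of day 11 therefore holds a lower control value as well as a higher diabetic one. It was past 2-fold in all 9 other settings, at a log2 of 1.42 to 1.58 outside the local-background settings. With the local background it was 3.83 in normexp and 4.10 by subtraction. The background recorded beside the Sparc spot on the day 11 control array was 92.9% of the spot median, and the day difference in control callus was -3.28 with the local background in normexp.

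Postn ran the other way on day 11. It had 5980.2 in diabetic callus against 9035 in control callus on day 11, and 13842 in diabetic callus against 9858 in control callus on day 5. The control arrays of the 2 days were close, at a log2 difference of -0.13, though this was 0.57 with the local background in normexp. The diabetic arrays were the highest and the lowest of the 4. Within diabetic callus Postn was 2.31-fold lower on day 11 than on day 5, a log2 difference of -1.21, and 0.899% of tested genes were at least as far apart. Relative to control callus it was higher in diabetic callus on day 5 (log2 0.49, 1.40-fold) and lower on day 11 (log2 -0.60), neither past 2-fold. With the local background in normexp both were, at 1.15 on day 5 and -1.81 on day 11. The day difference in diabetic callus was past 2-fold in all 9 other settings, with a log2 of -1.15 to -2.43.

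Dcn had 5502 in diabetic callus against 6830.3 in control callus on day 11, and 10047 in diabetic callus against 7402 in control callus on day 5. As with Postn, in these values the diabetic arrays held the highest and the lowest value and the control arrays lay between them. Dcn was lower on day 11 than on day 5 in diabetic callus by a log2 difference of -0.87, short of 2-fold, and 1.87% of tested genes were at least as far apart. In control callus the same difference was -0.12, about the SD of positive control 1, and 0.24 with the local background in normexp. Between the conditions Dcn was 1.36-fold higher in diabetic callus on day 5 (log2 0.44) and lower on day 11 (log2 -0.31). With the local background in normexp the day 5 difference was 1.54, past 2-fold, and the day 11 difference changed sign to 0.06. In the authors' deposited table the Dcn difference between the days in diabetic callus was -1.07, past 2-fold, but that table's median over all listed genes was also lower by 0.11 and relative to it the difference was -0.96. With the local background this day difference was -1.24 in normexp and -1.30 by subtraction.

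Lum had 9697 in diabetic callus against 7467 in control callus on day 11, and 13010 in diabetic callus against 10047 in control callus on day 5. All 4 values lay within a 1.74-fold range, the narrowest of the 5 genes. Lum was 1.30-fold higher in diabetic callus on day 11 (log2 0.38) and 1.29-fold higher on day 5 (log2 0.37). In these values it was lower on day 11 than on day 5 by nearly the same amount in both conditions. The log2 differences were -0.42 in diabetic callus and -0.43 in control callus. None of these 4 differences was past 2-fold, and none became so in the 9 other settings. Normexp on the local background gave a difference between the conditions of 0.25 on day 11 and -0.07 on day 5, of opposite signs. Its difference between the days was -0.17 in diabetic and -0.50 in control callus. Cyclic loess gave -0.35 and -0.49 for these.

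The sequence just upstream of the start site is shown for the 3 of 5 genes listed in the RefSeq promoter table (GRCr8), since their transcripts had different patterns: Sparc was higher and Postn lower in diabetic callus of day 11, and Lum had nearly the same difference on both days in the reported values. Fn1 and Dcn are named only. Each line gives the 150 bases before the annotated start, read 5′ to 3′ on the gene's strand, and capitals mark the TATA box motif TATAAA, the purine-rich motif GGAGG or the AP-1 motif TGANTCA on either strand.
Sparc, chr10:40038817-40038966, minus strand: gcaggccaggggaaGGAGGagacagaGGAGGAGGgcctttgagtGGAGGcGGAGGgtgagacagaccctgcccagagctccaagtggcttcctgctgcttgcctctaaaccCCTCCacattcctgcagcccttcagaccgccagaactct
Postn, chr2:140677911-140678060, plus strand: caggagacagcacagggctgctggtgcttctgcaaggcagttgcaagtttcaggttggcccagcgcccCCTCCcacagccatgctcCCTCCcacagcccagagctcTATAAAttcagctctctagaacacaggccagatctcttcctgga
Lum, chr7:34245556-34245705, plus strand: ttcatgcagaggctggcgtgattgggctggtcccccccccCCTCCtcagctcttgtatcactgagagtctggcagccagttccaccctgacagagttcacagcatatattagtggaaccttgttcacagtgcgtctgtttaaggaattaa
The Sparc window held GGAGG at 6 places, 5 as written and 1 on the other strand, 2 of them overlapping. Postn held TATAAA once, ending 39 bases before the start, and GGAGG at 2 places on the other strand, and Lum held GGAGG at 1 place. TGANTCA was in none of the 3 windows. Of 33469 promoters in the table, 8% held TATAAA at least 1 time in the same 150 bases on either strand. For GGAGG this share was 50.9% and for TGANTCA 3.69%. The share with GGAGG at 6 places, as in Sparc, was not computed. The motifs were picked with the sequences in view, and a match is a description of letters.

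**Figure D2:**
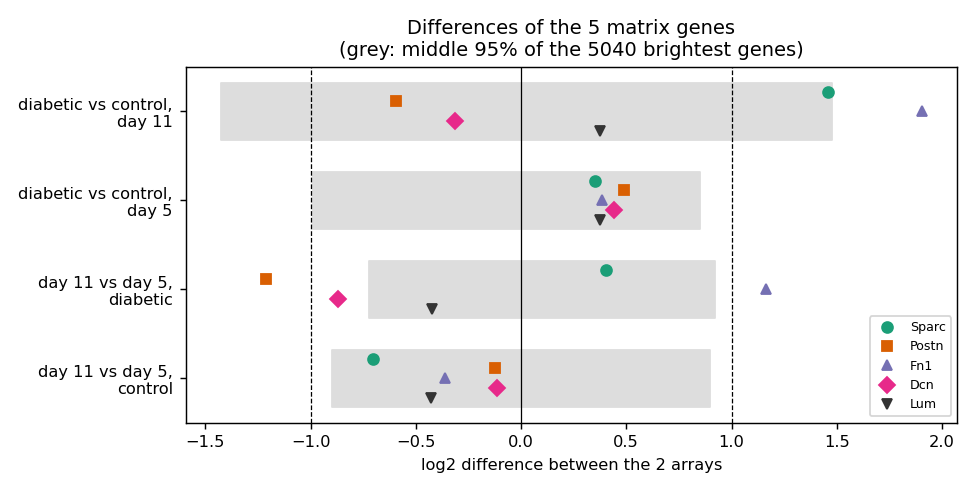
Log2 differences of the 5 genes in the 4 comparisons, with grey bands for the middle 95% of the 5040 brightest genes and dashed lines at 2-fold. The genes cluster at 0.35 to 0.49 for diabetic against control callus on day 5 and spread from -0.60 to 1.91 on day 11.

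Set against the other genes, the count of large differences among the 5 was read against the background of each comparison. The 5 genes were chosen with earlier results of these data known, so the shares are descriptions and not a test. On day 11, 2 of 5 genes, Fn1 and Sparc, were past 2-fold on the higher side in diabetic callus and 0 on the lower side, where 4.27% of 16732 genes tested were past 2-fold in either direction and 2.16% on the higher side. Among the 5040 brightest genes, which hold all 5, the share past 2-fold in either direction was 9.9%. These 5 genes stood at brightness ranks 22 to 344 on the arrays, and the share among genes as bright as that was not computed. On day 5, 0 of 5 genes were past 2-fold, beside 1.51% of 17030 genes and 4.11% of the bright ones. Within diabetic callus, 1 of 5 genes (Fn1) was past 2-fold on the higher side and 1 of 5 (Postn) on the lower side on day 11 relative to day 5. Of 16803 genes, 1.04% were that much higher and 0.315% that much lower, 1.35% in all, and of the bright genes 3.19%. Within control callus, 0 of 5 were past 2-fold, beside 1.68% of 16893 genes and 3.87% of the bright ones.

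Smaller differences lay to one side in 2 of the 4 comparisons. On day 5 all 5 genes were higher in diabetic callus, with a median log2 difference of 0.38 and a range of 0.35 to 0.49. Each is above the SD of that comparison for positive control 1 (0.0999) and for positive control 2 (0.298), but 6.82% to 12.6% of all tested genes differed by as much. These SDs do not measure a shift shared by all spots of an array. Among the 5040 brightest genes the middle 95% ran from -0.99 to 0.85, so all 5 genes lay inside that band. Over all genes tested the median was 0.01, and 52.5% were higher in diabetic callus (51% of the bright ones). The direction of Sparc and Lum turned on day 5 when normexp used the local background, to -0.29 and -0.07. Within control callus all 5 genes were lower on day 11 than on day 5, from -0.12 for Dcn to -0.71 for Sparc (median -0.36), where 52.2% of all tested genes and 54.3% of the bright ones were lower and the overall median was -0.01. There the local background in normexp turned the direction of Postn, Fn1 and Dcn, to 0.57, 0.59 and 0.24.

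**Figure D3:**
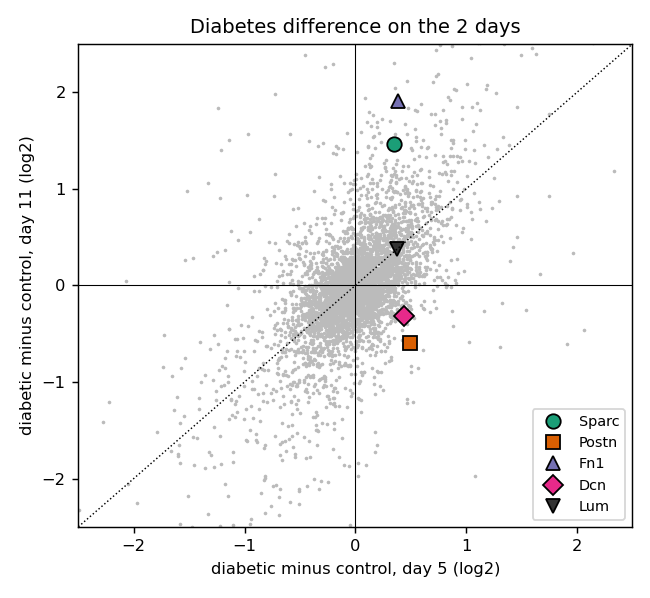
Diabetic minus control log2 difference on day 5 (horizontal axis) and day 11 (vertical axis), with the 5 genes as large symbols over the 5040 brightest genes in grey, of which 76 lie outside the axes, and equal differences on the dotted line. Lum lies on that line, Fn1 and Sparc above it, and Dcn and Postn below it with a negative difference on day 11.

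The diabetes difference of day 11 was set against that of day 5 for each gene. From day 5 to day 11 the diabetic minus control log2 difference grew by 1.52 for Fn1 and by 1.11 for Sparc, moved by -1.09 for Postn and by -0.75 for Dcn, and differed by 0.00 for Lum. When normexp used the local background the change for Fn1 was 0.09, smaller than the 0.32 of Lum, while it was 4.12 for Sparc, -2.96 for Postn and -1.48 for Dcn. In the 6 other settings of the values run in this fit, Fn1 and Sparc had changes above 0 and Postn and Dcn below 0, within 1.5 times the reported values. In a limma fit over 17661 genes with the day effect as the error, these changes had standard errors of 0.55 for Fn1, 0.22 for Sparc, 0.90 for Postn, 0.67 for Dcn and 0.58 for Lum. The adjusted p in limma was 0.9998 for each of the 5 genes. The error in this fit is the day difference averaged over the conditions, so a gene that differed between the days in opposite directions in the 2 conditions, as Sparc did, has a small standard error from that pattern itself, and the standard errors are not a measure of replicate spread. Over all genes limma called 0 (482 at an unadjusted p under 0.05), 0% of those tested, and with its trend and robust options also 0.

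Averaged over both days, the diabetic minus control difference was tested in an additive limma fit with 1 residual degree of freedom per gene. Its error term is the change between days, so genes whose difference grew have wide errors. Fn1 had an averaged log2 difference of 1.15 (SE 0.50) with an adjusted p of 0.444 in limma, and Sparc one of 0.91 (SE 0.36) with an adjusted p of 0.418. Lum had the smallest error of the 5, 0.37 (SE 0.04), with an adjusted p of 0.275 in limma. The averaged difference with the local background in normexp was 0.09 for Lum, 1.77 for Sparc, 0.80 for Dcn and -0.33 for Postn, and 1.08 for Fn1. For Postn the average was -0.05 (SE 0.36) and for Dcn 0.06 (SE 0.25), the opposite differences of the 2 days cancelling, with adjusted p of 0.970 and 0.941 in limma. In the authors' deposited table these averages were 0.14 for Postn, of the other sign, and 0.28 for Dcn, and cyclic loess gave 0.01 for Postn and 0.16 for Dcn. The day effect averaged over conditions was -0.43 (SE 0.04) for Lum, -0.67 (SE 0.36) for Postn and -0.49 (SE 0.25) for Dcn, with adjusted p of 0.525, 0.703 and 0.693 in limma. For Fn1 it was 0.40 (SE 0.50) and for Sparc -0.15 (SE 0.36), with adjusted p of 0.874 and 0.951 in limma. The day effect with the local background in normexp was 0.63 for Fn1 and -1.21 for Sparc, and in the authors' deposited table it was 0.26 for Fn1 and -0.32 for Sparc. Limma called 0 of 17661 genes for either effect (0%), with 2659 and 1612 genes at an unadjusted p under 0.05, and its trend and robust options called 3 and 0. None of the 5 genes was among those 3.

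Likeness of pattern was measured as the Euclidean distance between log2 profiles over the 4 arrays, each centred on its own mean. Among the 10 pairs of these genes, Postn and Dcn were the closest at 0.27, followed by Dcn and Lum at 0.49 and Sparc and Fn1 at 0.64, while Postn and Fn1 were the farthest apart at 2.07. These are descriptions over 4 arrays, in the reported values only. Distances were not computed with the local background, which moved these profiles. For Sparc in control callus, for example, it took the difference between the days from -0.71 to -3.28. The background was 7336 other genes that were above the blank-spot limit on all 4 arrays and brighter than the median of such genes. Of these, 0.409% lay within 0.5 of Fn1, 2.25% of Sparc, 1.09% of Postn, 14.5% of Dcn and 29.3% of Lum, so a distance of 0.49 as between Dcn and Lum was common around both. The nearest to Fn1 was ENSRNOG00000002934 at 0.13, with 2839 in diabetic callus against 687.6 in control callus on day 11 and 1131 against 884.9 on day 5 in the same order of groups. ENSRNOG00000014426 was the nearest to Sparc, also at 0.13, with 3155 in diabetic callus against 1176 in control callus on day 11. Dcn and Lum are neighbours in the GRCr8 reference table, with 0 listed genes between them and the related proteoglycan genes Kera and Epyc following. Their diabetic minus control differences on day 11 had opposite signs in the reported values. With the local background in normexp both were above 0, at 0.06 for Dcn and 0.25 for Lum.

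The scanner files also record a local background beside each spot, and for these bright genes it was high. It came to between 31.9% and 92.9% of the spot median over the 20 values, in intensity 2874 to 14913, whereas the median beside blank spots was 33.6 to 36.9. At the 8 spots adjacent to each gene's spot, the median local background on an array was 35.3 to 58.6. Most neighbouring spots thus did not share the high values, though a median does not show each spot. The reported values use the blank-spot level, and values with the local background are given beside the results that it moved most.

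**Figure D4:**
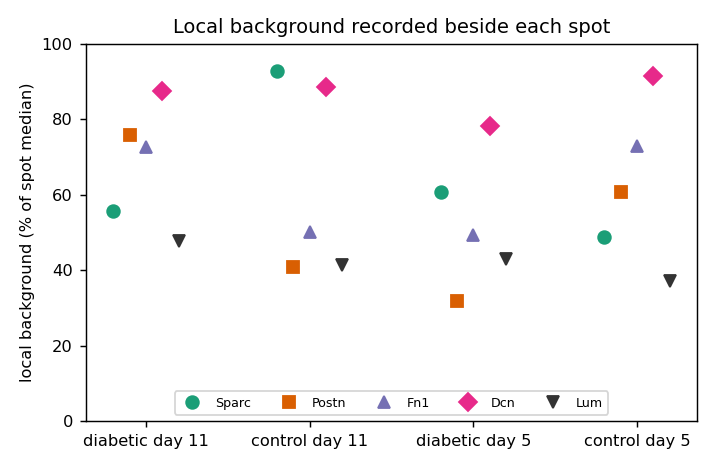
Local background as a percentage of the spot median for each gene on the 4 arrays, 1 symbol per gene. The Dcn spot lies at 78.3% to 91.4% on all arrays and Sparc reaches 92.9% on the control array of day 11.

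**Figure D5:**
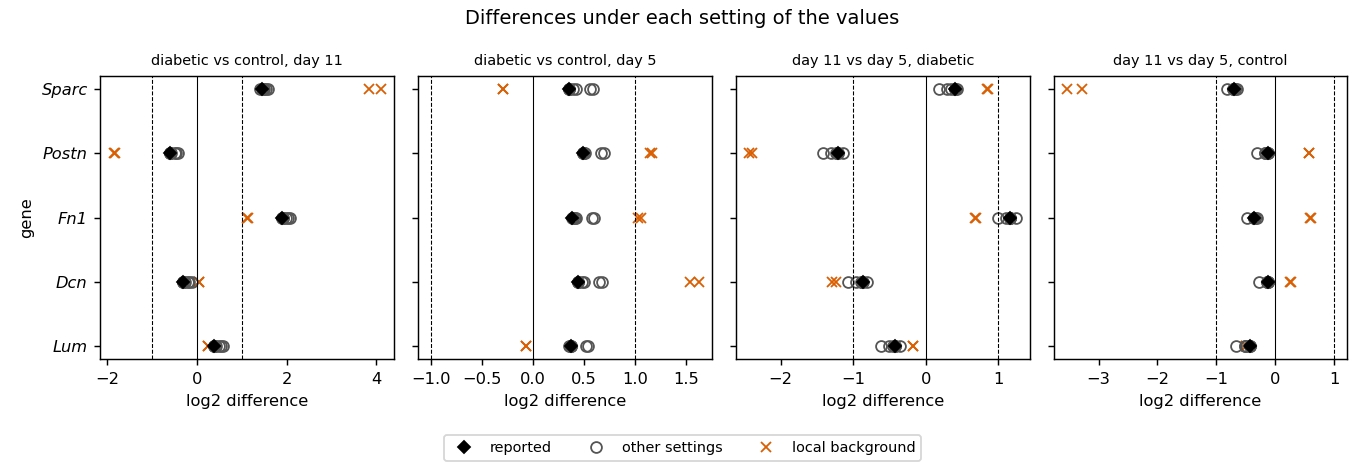
Log2 difference of each gene in the 4 comparisons as reported (black diamonds), with the 2 local-background settings (orange crosses) and the other 7 settings (open circles), and dashed lines at 2-fold. The open circles lie near the reported values, and the crosses depart most for Sparc, at -3.54 for day 11 against day 5 in control callus and 4.10 for diabetic against control callus on day 11.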

How the data were processed

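The members and lists were chosen with earlier results of these data known. Per the labels' protocols, callus RNA of 5 animals per group was pooled, amplified and coupled to Cy5, and hybridised to 1 single-colour array. Per the file headers, the deposited spot intensity is a median foreground, with a local background and flags at 3 scanner gains. Not given in the sources used here are the way gains were combined, the software and the probe annotation. The authors also deposited processed intensity values on a linear scale, which were used as an alternative. The number of arrays limits the precision.

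Under R 4.3.3, limma 3.58.1 corrected the intensities by normexp, with the mean of 5808 blank spots as background and an offset of 50. Control spots and 13 probes with a bad flag were then left out. The intensities of 20161 genes were quantile normalized on the linear scale and then converted to log2. A gene was tested if above the trimmed blank mean plus 2 SD on at least 1 of the arrays compared. With 1 array per group, 2-fold described differences, and limma (lmFit, eBayes, Benjamini-Hochberg threshold 0.05) was fitted over all 4 arrays. All 5 genes are named, with the nearest patterns of the 2 widest-ranging ones. By that rule, lists of other matrix genes and of cell type markers were to be used only where IDs could be paired with symbols, and with 0 IDs matched to the reference table they were not applied. The group of bright genes, the positive control spread and motifs were added after the data were seen. The alternatives covered background, offset, normalization, filter, threshold and the deposited table.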

Additional observations from a re-analysis of the deposited data

Results flagged for a closer look

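The difference between diabetic and control callus had opposite signs on the 2 days for Postn, at -0.60 on day 11 and 0.49 on day 5, and for Dcn, at -0.31 on day 11 and 0.44 on day 5. The difference between day 11 and day 5 had opposite signs in the 2 conditions for Fn1, at 1.16 in diabetic callus and -0.36 in control callus, and for Sparc, at 0.40 in diabetic callus and -0.71 in control callus. Each sign rests on 1 array per group. The limma test of the change, with an adjusted p of 0.9998 for all 4 genes, has 1 residual degree of freedom and does not show that the differences were alike. With the local background in normexp the opposite signs stayed for Postn (-1.81 on day 11, 1.15 on day 5) and Sparc (0.85 in diabetic, -3.28 in control callus), but Dcn had 0.06 on day 11 and Fn1 0.59 in control callus, which ended theirs.

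The local background column entered the local-background settings but not the values reported first, which use the blank-spot level. It gave up to 92.9% of the spot median at the spots of these genes. In intensity it was far above the 33.6 to 36.9 beside blank spots. What this column measured there was not tested.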

How the results depend on the processing

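No paired analysis was possible because each group is 1 array and the labels give no replicate numbers. Of 180 values of the 5 genes under 9 other settings, 75 moved by more than the spot error of positive control 1 and 105 by less; no difference past 2-fold changed sign. The count of these genes past 2-fold became 3 of 5 (Postn, Fn1 and Dcn) for diabetic against control callus on day 5 with the local background in normexp or subtracted, and 1 (Sparc) between the days in control callus with either of these or with a 1.5-fold limit. It became 3 (Postn added) on day 11 with either local-background setting or a 1.5-fold limit, and between the days in diabetic callus the 2 became Postn and Dcn with either local-background setting or in the authors' deposited table, and 3 (Postn, Fn1 and Dcn) at 1.5-fold. The cause was not tested. The count over all genes depended on the values. For diabetic against control callus on day 11 (714) it was 3236 with the blank level subtracted, 5596 with the local background subtracted, 1150 with an offset of 16, 2294 in the authors' deposited table, 2281 relative to that table's median (chosen after seeing the data) and 1750 at 1.5-fold. For day 5 (257, 91 higher and 166 lower) the same settings gave 2003, 4739, 407, 1291, 1294 and 797, and local-background normexp 624 (362 higher, 262 lower). For day 11 against day 5 in diabetic callus (227, 174 higher and 53 lower) they gave 1906, 5513, 360, 1075 (571 higher, 504 lower), 1054 and 672, and local-background normexp 861 (375 higher, 486 lower). In control callus (283, 163 higher and 120 lower) they gave 1887, 4374, 471, 1258 (485 higher, 773 lower), 1191 and 880, and local-background normexp 554. The authors' table had a median shift between the days of -0.11 in diabetic and -0.14 in control callus over all listed genes. For the averaged diabetes effect, limma with trend and robust options called 3 genes in place of 0, and no other setting of the 3 fits called any gene (lowest adjusted p in limma 0.0659). Single scanner gains were not run, since the files hold 1 combined signal.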
